A study of Mus musculus with 33 samples.

Results

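The response to lipopolysaccharide (LPS, the endotoxin of gram-negative bacteria) was compared between macrophages and fibroblasts of wild-type C57BL/6 mice over 8 of the 33 arrays of the series. Of these, 4 were hybridised with RNA of macrophages differentiated from bone marrow (BMDM) and 4 with RNA of embryonic fibroblasts (MEF). The arrays were chosen by their labels, as the WT LPS series of each cell type at 0, 1, 3 and 8 h, and each condition had 1 array. Macrophages had been grown from bone marrow in L929-conditioned medium for 5 to 8 days. Fibroblasts had been kept in DMEM with 10% bovine calf serum to passages 5 to 6. The LPS dose, the number of mice and the embryonic age are not given in the sources used here. The series also holds p50KO cells of both types, which lack the p50 subunit of NF-kB and have the same C57BL/6 label. Their LPS arrays (0, 1, 3 and 8 h, with the macrophage 0 h array taken from the CpG series) served as a second array per time in one of the tests. A condition with 1 array has no error of its own. In the test on WT arrays alone, the error holds the difference between the cell types in how the response changed with time. In the test that uses p50KO arrays, it holds the difference between the genotypes in the response to LPS. Both errors also hold any technical spread, so the p-values do not measure the spread between repeats of a condition.

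LPS is bound by the receptor TLR4 with its partners CD14 and MD-2 (the product of Ly96) on macrophages and on many non-immune cells. Signalling through the adaptor MyD88 activates NF-kB and MAP kinases and switches on cytokine, chemokine and feedback genes. Signalling through the adaptor TRIF (Ticam1) leads to interferon beta, which acts back on the cells through its receptor to switch on antiviral genes. Macrophages are professional sensors of LPS, whereas fibroblasts build connective tissue and recruit leukocytes when stimulated.

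The BMDM and MEF arrays were of different versions of the platform, which shared 16075 probes, and 6546 genes were tested. Induction is the log2 signal of an LPS array minus that of the unstimulated LPS-series array of the same cell type. A gene was called induced when it was at least 2-fold higher. Where a signal was not above background (detection p under 0.01), the lowest detected signal of that array was put in its place, so the induction is then a bound, written "at least". The WT MEF arrays were less sensitive than the others. Their detection limit was 5.68 to 6.02 on the log2 scale, against 5.14 to 5.28 on the WT BMDM arrays and 4.76 to 4.85 on the p50KO MEF arrays. The share of probes detected was 33.6% to 36.4% in WT MEF and 43.8% to 45.7% in WT BMDM. All arrays shared a highest signal of 15.22 after quantile normalization, so that genes near this value had little room to go higher. Because the array versions differ, signals are given within a cell type and are not compared between the cell types.

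A second unstimulated WT array of each cell type showed the spread without LPS. The CpG-series 0 h macrophage array differed at least 2-fold from the LPS-series one in 5.03% of genes (SD of the log2 difference 0.50). The IFNb-series 0 h fibroblast array differed from the LPS-series one in 13.7% of genes (SD 0.77), 493 higher and 406 lower. This exceeds the share of genes called in MEF at any time with LPS, so a single gene near 2-fold in MEF cannot be told from this spread, and inductions well above it carry the account below.

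The profiles of 2 p50KO macrophage arrays lay nearer to a later WT time than the one on their labels. A wrong label and an effect of the genotype on the response cannot be told apart here. Over the 1764 genes changed at least 2-fold in WT BMDM, the array labelled p50KO BMDM LPS 1 h had a root mean square difference of 0.45 from WT 3 h and 1.28 from WT 1 h. The array labelled p50KO BMDM LPS 3 h differed by 0.58 from WT 8 h and by 1.14 from WT 3 h. The p50KO BMDM 8 h array and all 4 p50KO MEF arrays were nearest to the WT array of their own label. Counts over all genes from the test that uses the p50KO arrays are therefore also given without these 2 arrays. So are the calls that changed at 8 h for the genes named. BMDM at 1 and 3 h then has 1 array each, which the fit matches exactly, so the error comes from the other arrays. The arrays were left out for their distance from WT, so smaller errors are partly built in. For named genes at 1 h the size of the difference alone is then given, without a p-value.

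Cell identity was checked with marker lists. In BMDM, all 10 measured macrophage markers were detected on all 4 arrays, and 6 of 10 fibroblast markers, among them Col3a1, Pdgfra and Thy1, were detected on none. In MEF, all 10 fibroblast markers were detected on all 4 arrays, and Itgam, Ptprc, Spi1, Ctss and Cd53 of the macrophage list were detected on none. On the p50KO MEF arrays 9 of the 10 macrophage markers tested were detected on at least 1 array. In WT MEF the other 5 macrophage markers did give a signal, with Adgre1, Fcgr3, Laptm5 and Lyz2 on all 4 arrays and Aif1 on 3. The summed linear signal of the 10 macrophage markers was 5269 to 7154 on the MEF arrays and 82108 to 90391 on the BMDM arrays, and in MEF it was 7154 at 0 h and 5428 at 8 h. Of 8 granulocyte and mast cell markers 6 were detected on all 4 BMDM arrays, with a summed signal of 5546 to 12057. Of the 6 that were tested, 4, 2 and 1 were at least 2-fold higher in BMDM at 1, 3 and 8 h. By the limma test over both genotypes described below, 6, 5 and 3 of them rose, and 0, 2 and 4 without the 2 p50KO arrays nearest to a later time. The part of such cells in the results was not tested. In bulk RNA, a change in the share of a cell type and a change of RNA per cell cannot be told apart.

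Against the LPS-series 0 h arrays, more genes passed 2-fold in macrophages than in fibroblasts at each time. In BMDM 132 genes (2.02% of those tested) were at least 2-fold higher at 1 h, 439 (6.71%) at 3 h and 716 (10.9%) at 8 h. In MEF these numbers were 33 (0.504%), 241 (3.68%) and 366 (5.59%). Lower by at least 2-fold were 52, 362 and 812 genes in BMDM (0.794%, 5.53% and 12.4%) and 4, 89 and 246 in MEF (0.0611%, 1.36% and 3.76%). With the other unstimulated array as the baseline this order turned at 1 h, where 263 genes were higher in BMDM and 440 in MEF. At 3 h the numbers were then 516 and 527, and at 8 h 771 and 561. With the mean of both unstimulated arrays they were 144 and 115 at 1 h, 439 and 297 at 3 h, and 702 and 400 at 8 h. Against the LPS-series arrays, 26 genes were induced in both at 1 h (0.397% of genes tested), 156 at 3 h (2.38%) and 222 at 8 h (3.39%). These made up 78.8%, 64.7% and 60.7% of the genes induced in MEF, but 19.7%, 35.5% and 31% of those induced in BMDM. Fewer were at least 2-fold lower in both, with 0, 24 and 71 genes, or 28.9% of the genes at least 2-fold lower in MEF and 8.74% of those in BMDM at 8 h.

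**Figure D1:**
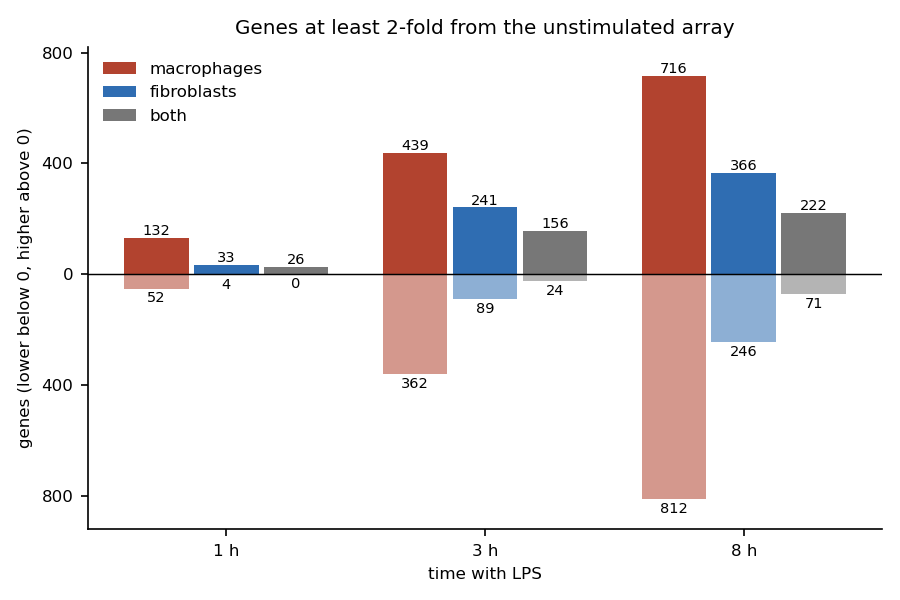
Number of genes at least 2-fold higher (bars above 0) or lower (bars below 0, paler) than the unstimulated array at 1, 3 and 8 h of LPS, in macrophages (red), fibroblasts (blue) and both (grey), of 6546 tested with 1 array per condition. At 8 h 716 genes were higher in macrophages, 366 in fibroblasts and 222 in both.

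A part of the genes induced in macrophages was not detected in fibroblasts. Of the 716 BMDM-induced genes at 8 h, 331 were detected in MEF but less than 2-fold higher, and 163 were not detected on either MEF array of that comparison. At 1 h 45 of 132 were not detected on either, and at 3 h 102 of 439. Over all times, 176 of the 807 genes induced in BMDM were on no WT MEF array. This was near the share among all genes tested, 1245 of 6546. Of the 176 genes, 96 were detected on at least 1 of the more sensitive p50KO MEF arrays. The reverse case, induced in MEF and on no WT BMDM array, comprised 36 of 414 genes, where 583 of all 6546 genes were on no WT BMDM array. Another 30 genes were below detection at 0 h in both cell types and induced at some time in both.

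Among genes induced in both, the median induction in BMDM was 2.90 at 1 h, 2.70 at 3 h and 2.75 at 8 h, against 2.01, 1.89 and 2.39 in MEF. At 8 h it was larger in BMDM for 146 of the 222 genes and larger in MEF for 76. Many of these values are bounds: of the 366 genes induced in MEF at 8 h 95 were below detection at 0 h, as were 122 of the 716 in BMDM. The detection limit was higher in MEF, so the MEF medians are the more understated and the tally does not settle which cell type had the larger induction. Across the genes detected on all arrays of both contrasts, the inductions of the cell types had a Pearson r of 0.44 at 1 h (4092 genes), 0.63 at 3 h (4049) and 0.58 at 8 h (3956). These are descriptions across genes, which are not independent replicates.

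**Figure D2:**
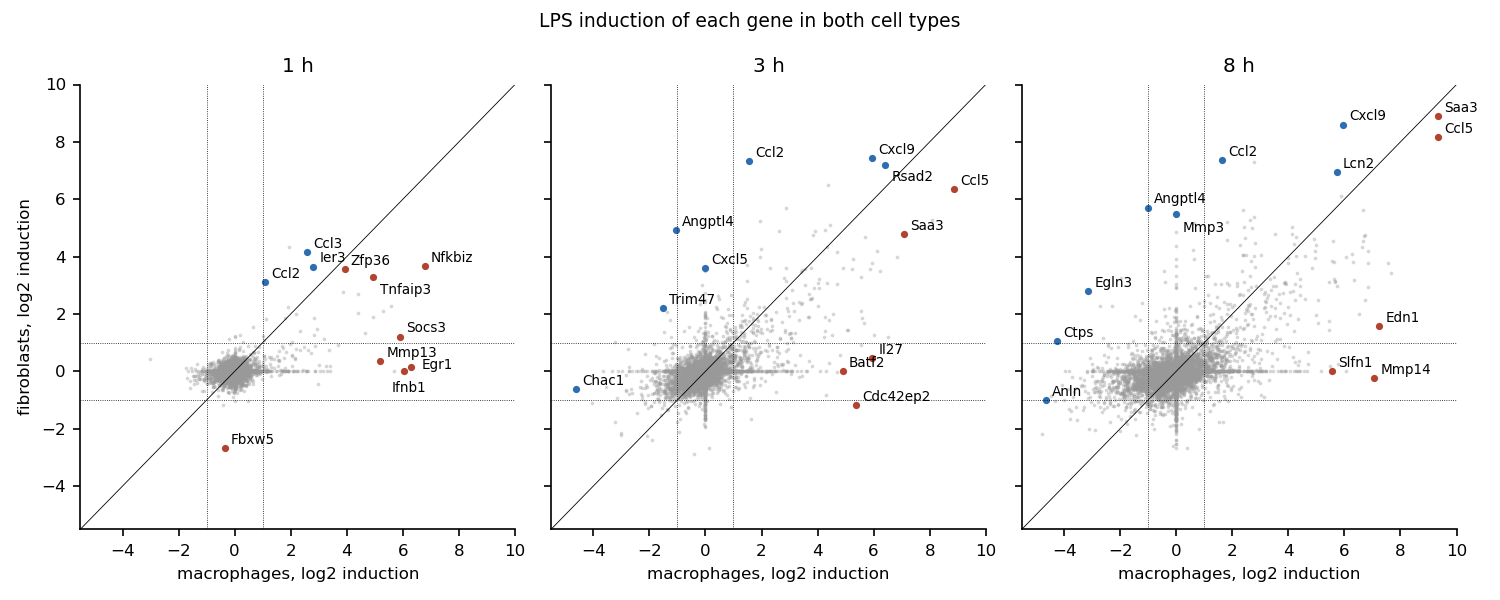
Log2 induction of every gene tested in macrophages (x axis) against fibroblasts (y axis) at 1, 3 and 8 h, with dotted lines at 2-fold and a diagonal of equal induction. Named genes are red where the macrophage value is the higher and blue where the fibroblast value is. Points on the lines at 0 include genes not detected on either array of 1 cell type, such as Slfn1 in MEF and Mmp3 in BMDM.

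The time at which a gene first passed 2-fold was counted against the LPS-series 0 h arrays, and the number of MEF genes at 1 h turns on that baseline as given above. The detection limit was also higher in WT MEF, and highest at 1 h (6.02). A gene with a low signal can therefore pass 2-fold later in MEF for that reason alone, and the part of this in the counts was not tested. Of the 807 genes induced in BMDM at any time, 16.4% first passed 2-fold at 1 h, 42.1% at 3 h and 41.5% at 8 h. Of the 414 induced in MEF, these shares were 7.97%, 52.4% and 39.6%. Of the 262 genes induced at some time in both, 158 passed 2-fold first at the same time, 87 earlier in BMDM and 17 earlier in MEF. In this shared set, 76 genes were already 2-fold higher at 1 h in BMDM, of which 26 were so in MEF at 1 h, 41 first at 3 h and 9 first at 8 h. The largest induction lay at 8 h for 76.8% of the BMDM and 74.6% of the MEF genes.

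The difference between the cell types was tested in limma in 2 ways. With the 8 WT arrays alone, the mean response over 1, 3 and 8 h was tested with time as a shared factor. This called 12 genes in BMDM, all higher (0.183% of those tested): AA467197, Calhm6, Cd40, Clec4e, Dusp2, Fpr2, Gbp3, Irf1, Oasl1, Socs3, Traf1 and Trex1. It called 0 in MEF and 0 for the difference, where 269 and 92 genes had an unadjusted p under 0.05, against 738 in BMDM. With the p50KO arrays as a second array per time, 89, 766 and 1031 genes rose in BMDM at 1, 3 and 8 h (1.36%, 11.7% and 15.8% of those tested) and 54, 1117 and 1527 fell (0.825%, 17.1% and 23.3%). In MEF 11, 192 and 432 rose (0.168%, 2.93% and 6.6%) and 1, 124 and 526 fell (0.0153%, 1.89% and 8.04%). The response differed between the cell types for 9 genes (0.137%) at 1 h, 112 (1.71%) at 3 h and 728 (11.1%) at 8 h. The higher response lay in BMDM for 8, 64 and 363 of these (0.122%, 0.978% and 5.55%) and in MEF for 1, 48 and 365 (0.0153%, 0.733% and 5.58%). Without the 2 p50KO BMDM arrays nearest to a later time, 76, 520 and 1404 genes rose and 45, 622 and 2006 fell in BMDM, 25, 365 and 673 rose and 2, 455 and 1083 fell in MEF, and 30, 343 and 2028 differed. Without the p50KO BMDM 0 h array of the CpG series, 46, 104 and 1100 genes rose or fell in BMDM, and 36 differed at 3 h and 163 at 8 h. Of the 365 genes with the higher response in MEF at 8 h, 205 were at least 2-fold lower in WT BMDM, 83 were at least 2-fold higher in WT MEF and 21 were induced in both. Of the 363 with the higher response in BMDM, 156 were at least 2-fold higher in WT BMDM, 94 were at least 2-fold lower in WT MEF and 7 were induced in both.

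The 26 genes induced in both cell types at 1 h included 4 of the list of NF-kB subunits and inhibitors, 5 of the early brakes, 4 of the monocyte and lymphocyte chemokines and 2 of the TLR4 list. Nfkbiz, which encodes the nuclear NF-kB cofactor IkB-zeta, had log2 signals of 6.26, 13.04, 11.94 and 11.17 at 0, 1, 3 and 8 h in BMDM. In MEF they were 7.12, 10.80, 11.82 and 11.72. Its induction at 1 h was 6.78 in BMDM and 3.68 in MEF, a 109.8-fold and a 12.8-fold increase, and at 8 h it was 4.91 and 4.60. Tnfaip3, which encodes the ubiquitin-editing inhibitor A20, went from 7.52 to 12.47, 11.94 and 11.64 in BMDM, and in MEF from below detection to 8.97, 10.77 and 10.70. Its induction in BMDM was largest at 1 h (4.95), and in MEF at 3 h (at least 5.09). Zfp36, whose product tristetraprolin destabilises cytokine mRNAs, was induced by 3.92 in BMDM and 3.56 in MEF at 1 h. Ier3, an early survival gene, was higher by 2.81 and 3.65, Irf1, a transcription factor of interferon-type genes, by 3.88 and 2.75, and Junb, an AP-1 subunit, by 4.39 and 2.70. These genes were thus induced in both cell types at 1 h, Ier3 more in MEF and Nfkbiz, Zfp36, Irf1 and Junb more in BMDM. All 6 rose at 1 h in both by the limma test over both genotypes, and none of their differences was called there, with adjusted p from 0.392 to 0.992. Without the 2 p50KO arrays nearest to a later time, the Nfkbiz difference at 1 h was 3.08.

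Of the 12 tested members of the NF-kB list, 7 were induced in BMDM at 1 h, 10 at 3 h and 10 at 8 h. In MEF 4, 9 and 10 were induced, and 8 in both at 8 h, with a median induction at 8 h of 2.22 in MEF and 3.00 in BMDM, where the median of all genes was 0.00 in both. Nfkbie, encoding the inhibitor IkB-epsilon, reached 4.27 in BMDM and at least 4.92 in MEF at 3 h. Bcl3, a nuclear IkB protein, was induced by 3.40 and at least 2.34 at 3 h, and Relb, an NF-kB subunit, by at least 3.71 and 2.71. The subunit gene Rel and the survival gene Birc3 were induced in BMDM, by at least 3.04 and 2.34 at 3 h, and were on no WT MEF array. Birc3 had log2 signals of 7.30 and 7.70 on the p50KO MEF arrays at 3 and 8 h, while Rel stayed between 4.56 and 4.84 there. Traf1, a signalling adaptor of TNF receptors, rose in both, by 6.09 in BMDM and 2.96 in MEF at 8 h (limma over both genotypes, adjusted p = 0.000363 and 0.00807). The difference was 3.13 ± 0.81 (SE, adjusted p = 0.0393).

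**Figure D3:**
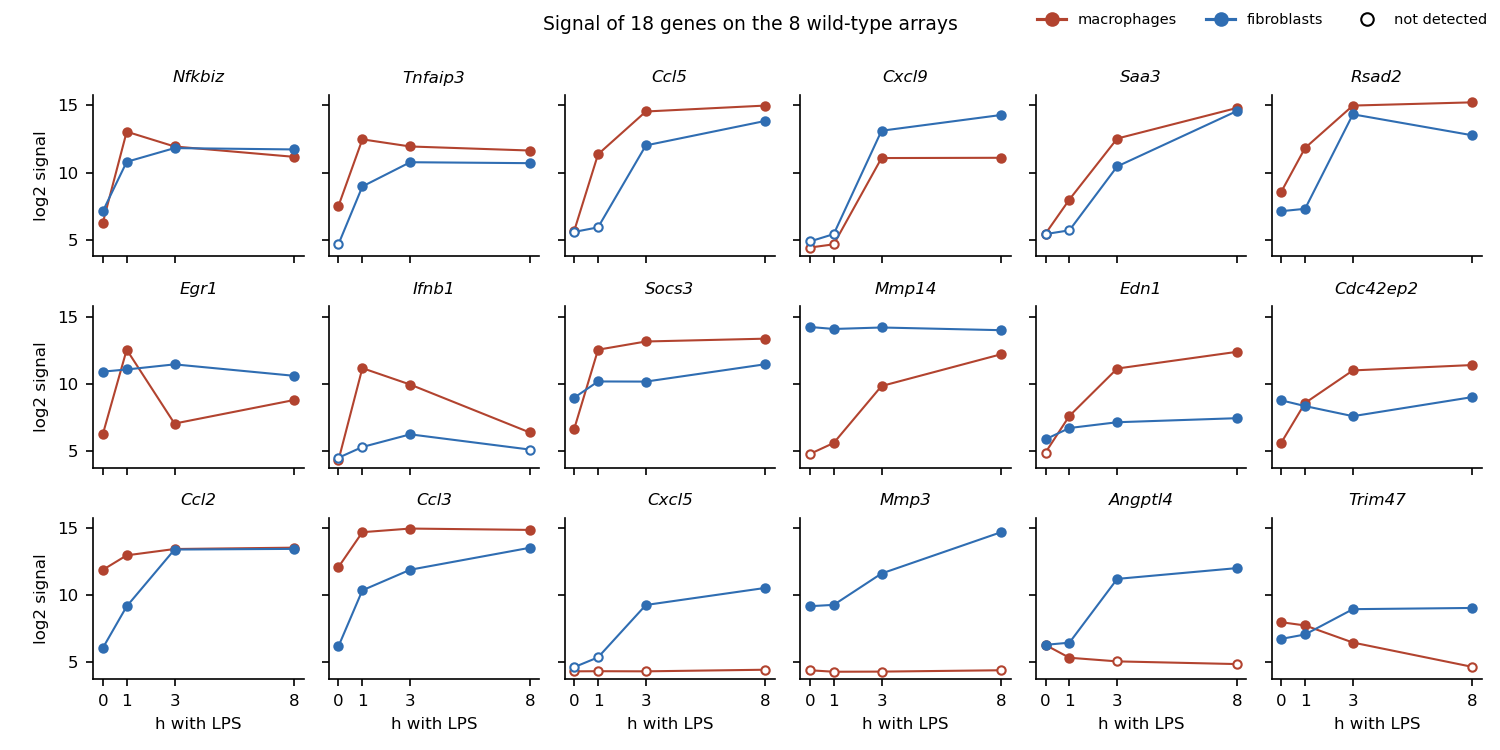
Log2 signal of 18 named genes at 0, 1, 3 and 8 h on the 4 macrophage (red) and 4 fibroblast (blue) arrays, 1 array per point, with open circles where the signal was not above background. The top row shows genes induced in both, the middle row genes with the larger induction in macrophages and the bottom row genes with the larger induction in fibroblasts. Each gene is read within a cell type: Egr1 went from 6.25 to 12.54 at 1 h in macrophages and from 10.91 to 11.07 in fibroblasts.

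Of 13 tested immediate-early transcription factors, 7, 2 and 5 were induced in BMDM at 1, 3 and 8 h and 2, 3 and 2 in MEF. Egr1, an immediate-early transcription factor, had log2 signals of 6.25, 12.54, 7.05 and 8.80 in BMDM and 10.91, 11.07, 11.45 and 10.60 in MEF. Its induction at 1 h was 6.29 in BMDM and 0.16 in MEF. Ifnb1, the gene of interferon beta, was below detection at 0 h in both, and then had signals of 11.17, 9.95 and 6.39 in BMDM. In MEF it was detected at 3 h alone, with 6.25. Its induction was at least 6.03, at least 4.80 and at least 1.25 in BMDM and at least 0.57 at 3 h in MEF. On the p50KO MEF arrays Ifnb1 had signals of 7.17, 8.08 and 6.65 after 4.50 at 0 h. Neither gene passed the test of the difference at 1 h, where the adjusted p over both genotypes was 0.822 for Egr1 and 0.178 for Ifnb1. Without the 2 p50KO arrays nearest to a later time, the difference at 1 h was 5.64 for Egr1 and 5.61 for Ifnb1.

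The early brakes, a list of phosphatases, decay factors and suppressors of cytokine signalling, had 12 tested members. Of these 9, 10 and 10 were induced in BMDM at 1, 3 and 8 h and 5, 7 and 5 in MEF, where 2.02%, 6.71% and 10.9% of all genes were induced in BMDM and 0.504%, 3.68% and 5.59% in MEF. By the limma test over both genotypes the difference was called for 1, 1 and 2 of them, all with the larger response in BMDM. It was called for 0.137%, 1.71% and 11.1% of all genes. Leaving out the 2 p50KO arrays, it was called at 8 h for 5 of them, of which 1 had the larger response in MEF. Of all genes 31% were then called at 8 h. Socs3, a suppressor of STAT3 signalling, had the largest gap. Its log2 signals were 6.64, 12.54, 13.15 and 13.36 in BMDM and 8.97, 10.18, 10.17 and 11.46 in MEF. Socs3 rose in both cell types at 8 h, and its response was larger in BMDM by 5.15 ± 0.57 at 1 h and by 3.99 ± 0.57 at 8 h (SE, limma over both genotypes, adjusted p = 0.0112 and 0.00507). Ppp1r15a, a stress-induced phosphatase subunit, was induced by 4.66 in BMDM and 1.32 in MEF at 1 h. Dusp1, a MAP kinase phosphatase, was higher by 4.39 and 2.03 at 1 h, but with the IFNb-series array as the MEF baseline its MEF value was -0.33. Cish, another suppressor of cytokine signalling, reached at least 5.65 in BMDM and 1.70 in MEF at 3 h.

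Of 14 tested inflammatory cytokines, 6, 9 and 10 were induced in BMDM at 1, 3 and 8 h and 1, 4 and 7 in MEF. Of all genes 2.02%, 6.71% and 10.9% were induced in BMDM and 0.504%, 3.68% and 5.59% in MEF. By the limma test over both genotypes the difference was called for none of the 14 at any time, and for 0.137%, 1.71% and 11.1% of all genes. This changed for some of them without the 2 p50KO arrays nearest to a later time. Il6, a fever and acute-phase cytokine, was below detection at 0 h in both. Its signals at 1, 3 and 8 h were 6.30, 10.20 and 10.18 in BMDM, and it was detected in MEF at 3 and 8 h with 7.12 and 8.18. On the p50KO MEF arrays Il6 reached 9.84 and 10.49. Il27, encoding a subunit of interleukin 27, was induced by at least 5.95 in BMDM and at least 0.46 in MEF at 3 h. Tnfsf9, a costimulatory ligand, was high at 1 h in both, by 4.95 and at least 1.89.

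Of 12 tested monocyte and lymphocyte chemokines, 6, 9 and 10 were induced in BMDM at 1, 3 and 8 h and 4, 10 and 10 in MEF, with 4, 8 and 9 in both. Their median induction was 0.75, 2.44 and 1.99 in BMDM and 0.18, 2.73 and 3.87 in MEF. At 8 h the difference was called for 1 with the larger response in BMDM and for 5 with the larger response in MEF, with and without the 2 p50KO arrays. Among all genes it was called for 11.1% with these arrays and 31% without them. Ccl2, the main monocyte attractant, had log2 signals of 11.88, 12.96, 13.43 and 13.53 in BMDM and 6.07, 9.17, 13.39 and 13.44 in MEF. The Ccl2 induction at 8 h was 1.65 in BMDM and 7.37 in MEF, and the response was smaller in BMDM by 5.93 ± 0.55 (SE, limma over both genotypes, adjusted p = 0.000798). With the IFNb-series array as the MEF baseline the Ccl2 value in MEF was -0.33 at 1 h, 3.90 at 3 h and 3.95 at 8 h. Ccl3, an inflammatory chemokine, had signals of 12.09, 14.68, 14.95 and 14.85 in BMDM and 6.20, 10.36, 11.89 and 13.52 in MEF. Its macrophage signals lay near the shared highest signal, as did those of Ccl4 (15.22 at 1 and 3 h), which limits how far these inductions could go. Both genes rose in both cell types at 8 h, by less in BMDM (difference -4.13 ± 0.29 for Ccl3 and -3.42 ± 0.36 for Ccl4, adjusted p = 0.00013 and 0.00117).

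Ccl5, which attracts T cells and monocytes, was first detected in fibroblasts at 3 h. Its log2 signals were 5.66, 11.36, 14.54 and 14.98 in BMDM, and in MEF it was below detection at 0 and 1 h and had 12.02 and 13.84 at 3 and 8 h. At 1 h its induction was 5.70 in BMDM, with a difference of 5.84 ± 0.92 over both genotypes (SE, adjusted p = 0.0575). The difference was 4.63 without the 2 p50KO arrays. At 8 h it was 9.33 in BMDM and at least 8.16 in MEF, and the difference over both genotypes was -0.24 ± 0.92 (SE, adjusted p = 0.884). Cxcl9, a T cell attractant of the interferon type, was below detection at 0 and 1 h in both. It then had 11.08 and 11.10 in BMDM and 13.11 and 14.28 in MEF, an induction of at least 5.96 and at least 8.60 at 8 h. Its difference at 8 h was -2.90 ± 1.87 (SE, adjusted p = 0.334, and 0.000249 without the 2 p50KO arrays). Cxcl5, a neutrophil attractant, was on no WT BMDM array and had signals of 9.27 and 10.54 in MEF at 3 and 8 h. It rose in MEF at 8 h (limma over both genotypes, adjusted p = 8.68e-05), with a difference at 8 h of -5.09 ± 0.62 (adjusted p = 0.00247). The platelet chemokine genes Pf4 and Ppbp were within 0.42 and 0.27 of their unstimulated level at each time.

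The interferon-responsive genes came later and in both cell types. Of 19 tested type I interferon antiviral effectors, 3, 18 and 19 were induced in BMDM at 1, 3 and 8 h and 0, 12 and 17 in MEF. By the test over both genotypes at 8 h, 19 of the 19 rose in BMDM and 16 in MEF. The difference was called for 1 with the larger response in BMDM and for 2 with the larger response in MEF. When the 2 p50KO arrays nearest to a later time were left out, 19 rose in BMDM and 17 in MEF, and the difference was called for 3 and 2. Of all genes, 11.1% differed at 8 h with these arrays and 31% without them. Rsad2, encoding the antiviral enzyme viperin, had log2 signals of 8.56, 11.83, 14.98 and 15.22 in BMDM and 7.13, 7.31, 14.33 and 12.77 in MEF. Its induction peaked at 3 h in MEF with 7.20 and stood at 6.66 in BMDM at 8 h. The BMDM signal at 8 h was the shared highest signal of 15.22, so the 2 inductions cannot be ranked. Isg15, a ubiquitin-like modifier, began at 7.26 in BMDM and at 12.04 in MEF and ended at 14.11 and 14.98. Its 8 h induction was 6.85 and 2.95, with a difference of 2.46 ± 0.88 (SE, adjusted p = 0.0987, and 0.0273 without the 2 p50KO arrays). The MEF signal of Isg15 at 8 h lay near the shared highest signal of 15.22, which limits how far Isg15 could rise there. Oasl1, an oligoadenylate synthetase-like gene, was below detection at 0 h in both and induced by at least 7.54 and at least 3.77 at 8 h. Ifit3, an antiviral RNA-binding family member, was induced by 6.84 and 4.21.

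The interferon-inducible GTPases, which act against intracellular pathogens, were induced for 8 of 8 in BMDM and 7 of 8 in MEF at both 3 and 8 h. None of the 8 passed the test of a difference at 8 h, against 11.1% of all genes. With 8 members this does not show an equal response. Igtp was induced by 4.95 in BMDM and 4.20 in MEF at 8 h, Gbp3 by 6.71 and 4.73 and Gbp5 by at least 6.73 and at least 4.75. Among 13 tested genes of the interferon pathway, Irf7, which amplifies interferon production, was induced by 6.32 and 3.82 at 8 h, and Stat2, a subunit of the interferon-activated factor, by 4.06 and 1.95. In this list 10 genes were induced in BMDM and 5 in MEF at 8 h. Batf2, an AP-1 family factor, and Slfn1, of the Schlafen family, were induced by 6.07 and by at least 5.55 in BMDM at 8 h. Both were on no WT MEF array. The limma test took signals below detection as they were, so the differences given next rest in part on background. For Slfn1 the difference at 8 h was 5.07 ± 0.84 (SE, adjusted p = 0.00951), and for Batf2 it was 4.90 ± 1.5 (adjusted p = 0.0655, and 0.000109 without the 2 p50KO arrays).

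Genes of MHC class I presentation, which load peptides for T cells, were induced late in both cell types. Of 12 tested members, 0, 7 and 10 were induced in BMDM and 0, 5 and 9 in MEF at 1, 3 and 8 h, with medians at 8 h of 2.29 and 2.90. Psmb9, a subunit of the immunoproteasome, had log2 signals of 9.46, 9.42, 10.96 and 12.08 in BMDM and 6.09, 6.34, 9.23 and 11.36 in MEF. It rose in both, by less in BMDM (difference at 8 h -3.55 ± 0.61, SE, adjusted p = 0.0113). Psmb10, another subunit, was induced by 2.82 and 3.64, and the peptide transporter genes Tap1 and Tap2 by 3.98 and 2.76 in BMDM and by at least 3.78 and by 4.01 in MEF.

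Of 14 tested genes of the TLR4 complex and its adaptors, 2, 5 and 7 were induced in BMDM at 1, 3 and 8 h and 3, 3 and 5 in MEF. The gene of the LPS receptor was not among them. Tlr4 had log2 signals of 9.22, 9.20, 8.09 and 8.45 in BMDM and 6.83, 6.88, 6.19 and 7.09 in MEF, and Ly96 stayed within 0.74 of its unstimulated level at each time in both. Cd14, the LPS-binding coreceptor, had signals of 11.98, 12.97, 13.27 and 13.37 in BMDM and 7.34, 8.57, 9.29 and 10.40 in MEF. Tlr2, the receptor of bacterial lipopeptides, had 9.79, 12.63, 13.69 and 12.16 in BMDM and 7.62, 9.48, 12.52 and 13.23 in MEF. Cd14 and Tlr2 rose in both cell types at 8 h, by less in BMDM (differences -2.02 ± 0.24 and -3.44 ± 0.63, SE, adjusted p = 0.00243 and 0.0132). Map3k8, the kinase Tpl2, was induced at 3 h by 3.76 and by at least 3.61, and Ikbke, a kinase upstream of IRF3, by 2.95 and 0.78. Irak1, Ticam1 and Tirap, which encode a kinase and 2 adaptors of the pathway, were detected in BMDM and on no WT MEF array. Of the 14 genes of this list, 10 were detected on at least 1 WT MEF array and 13 on at least 1 of the more sensitive p50KO MEF arrays. The adaptor gene Myd88 is taken up below, because its probes differed between the platforms.

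Of 14 tested adhesion, costimulation and inducible receptor genes, 11 were induced in BMDM and 8 in MEF at 8 h. Cd40, the costimulatory receptor, had log2 signals of 6.88, 9.50, 12.42 and 13.21 in BMDM, and in MEF it was below detection at 0 and 1 h and had 7.79 and 8.86 at 3 and 8 h. Cd69, an early activation antigen, was induced by 8.07 in BMDM and at least 5.26 in MEF at 3 h. Cd274, which encodes PD-L1, was induced by 4.37 and by at least 6.51 at 3 h, and its signals at 8 h were 13.87 and 10.10. Fpr2, a formyl peptide receptor, was induced by 6.63 and by at least 4.34 at 8 h.

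**Figure D4:**
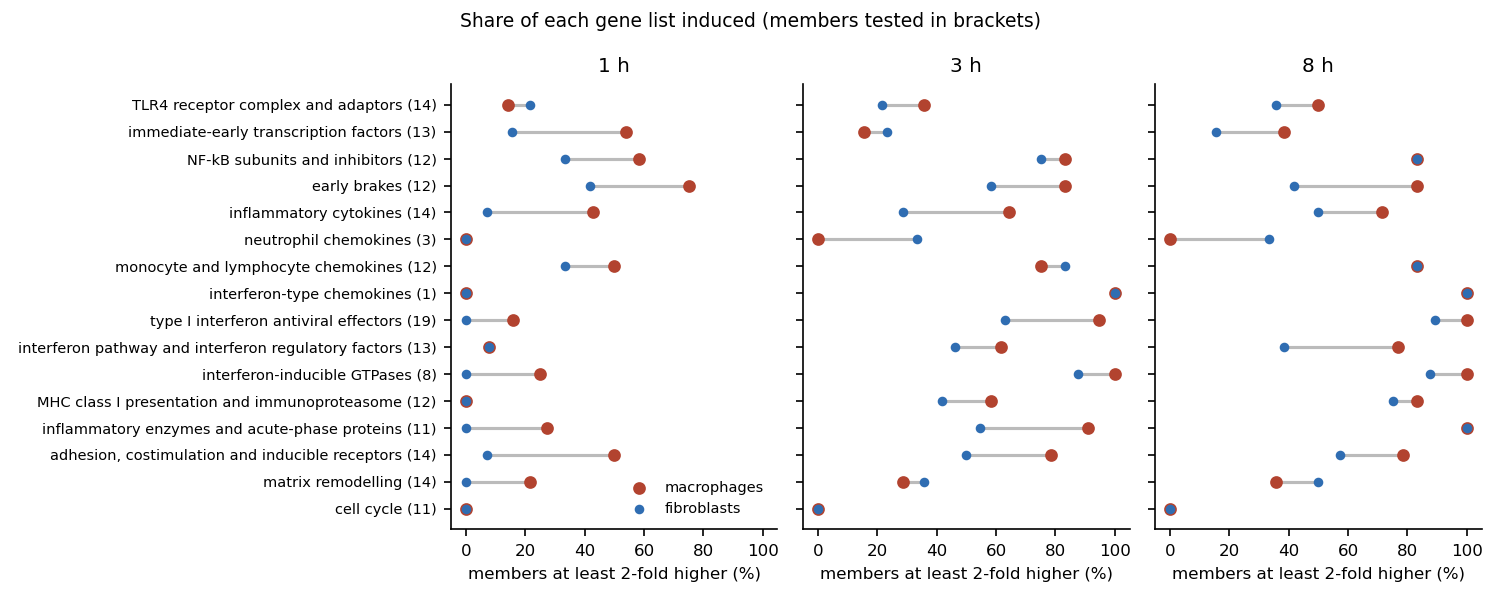
Share of the tested members of 16 gene lists (members tested in brackets) that were at least 2-fold higher at 1, 3 and 8 h, in macrophages (red, larger dots) and fibroblasts (blue). The 11 inflammatory enzymes and acute-phase proteins were all induced in both at 8 h, while no cell cycle gene was induced at any time.

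All 11 tested inflammatory enzymes and acute-phase proteins were induced in both cell types at 8 h, with medians of 4.07 in BMDM and 3.43 in MEF. Saa3, an acute-phase apolipoprotein, had log2 signals of 5.46, 8.00, 12.53 and 14.80 in BMDM, and in MEF it was below detection at 0 and 1 h and had 10.46 and 14.57. Its induction at 8 h was 9.34 in BMDM (649-fold) and at least 8.90 in MEF, and the difference over both genotypes was 0.01 ± 1.33 (SE, adjusted p = 0.996). Lcn2, an iron-sequestering protein, was induced by 5.73 in BMDM and at least 6.95 in MEF at 8 h, with signals of 13.32 and 12.62. On the p50KO arrays at 8 h Lcn2 had 8.18 in BMDM and 5.14 in MEF. Cfb, complement factor B, was below detection at 0 and 1 h in both and induced by at least 6.07 and at least 3.99 at 8 h. Nos2, the inducible nitric oxide synthase, was induced by at least 5.46 in BMDM and at least 1.44 in MEF.

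Of 14 tested matrix remodelling genes, 3, 4 and 5 were induced in BMDM at 1, 3 and 8 h and 0, 5 and 7 in MEF, with 0, 1 and 3 in both. At 8 h the difference was called for 3 with the larger response in BMDM and 4 with the larger response in MEF. Without the 2 p50KO arrays it was called for 3 and 5. The share among all genes was 11.1% with these arrays and 31% without them. Mmp14, a membrane-bound matrix metalloproteinase that activates others, was below detection at 0 h in BMDM and had log2 signals of 5.61, 9.84 and 12.20 at 1, 3 and 8 h. In MEF it had 14.23, 14.08, 14.19 and 13.99. Mmp14 rose in BMDM, and in MEF its estimate at 8 h was -0.20 (adjusted p = 0.924). The difference at 8 h was 7.32 ± 1.06 (SE, limma over both genotypes, adjusted p = 0.00512). Its MEF signals lay near the shared highest signal of 15.22, which limits how far it could rise there. The test took the BMDM signal below detection at 0 h as it was. Mmp3, stromelysin 1, was the converse. It was on no BMDM array and had signals of 9.18, 9.28, 11.61 and 14.68 in MEF, a 45.1-fold increase at 8 h, with a difference of -4.49 ± 0.58 (adjusted p = 0.00307). Mmp13, a collagenase, was induced in both at different speeds. Its signals were 7.80, 13, 13.66 and 13.69 in BMDM and 7.16, 7.50, 10.73 and 13.28 in MEF. At 1 h its response was larger in BMDM by 4.51 ± 0.51 (adjusted p = 0.0112), and by 4.48 without the 2 p50KO arrays. At 8 h the difference was -1.17 ± 0.51 (adjusted p = 0.164). With the IFNb-series array as the MEF baseline the Mmp13 value in MEF at 3 h was -1. Mmp9, a gelatinase, was induced by 1.69 in BMDM at 1 h and by 3.91 in MEF at 8 h.

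Outside the lists, the largest gaps in favour of macrophages at 3 and 8 h included Edn1, Cdc42ep2 and Rnd3. Edn1, which encodes the vasoconstrictor endothelin 1, was below detection at 0 h in BMDM and then had log2 signals of 7.62, 11.14 and 12.38. In MEF it had 5.88, 6.72, 7.15 and 7.45. Its response at 8 h was larger in BMDM by 5.64 ± 1.18 (SE, adjusted p = 0.0197). Cdc42ep2, an effector of the GTPase Cdc42, had 5.62, 8.58, 11 and 11.40 in BMDM and 8.78, 8.35, 7.60 and 9.02 in MEF. Its difference was 6.92 ± 0.68 at 3 h and 5.34 ± 0.68 at 8 h (adjusted p = 0.00201 and 0.0029). Rnd3 was induced by 4.30 in BMDM at 3 h and was at -0.81 in MEF.

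Other genes went in opposite directions. At 8 h, 7 genes were at least 2-fold higher in BMDM and lower in MEF, and 11 the other way round. Angptl4, a secreted inhibitor of lipoprotein lipase, had log2 signals of 6.30 and 5.35 at 0 and 1 h in BMDM and was below detection at 3 and 8 h. In MEF it had 6.31, 6.47, 11.21 and 12.01. Its difference at 8 h was -6.08 ± 0.55 (SE, limma over both genotypes, adjusted p = 0.000719). Trim47, a ubiquitin ligase of the TRIM family, had 7.99, 7.75 and 6.48 in BMDM at 0, 1 and 3 h and was below detection at 8 h. In MEF it had 6.75, 7.08, 8.96 and 9.05. Trim47 fell in BMDM and rose in MEF at 8 h (adjusted p = 0.000212 and 0.000391, difference -5.69 ± 0.37). Egln3, an oxygen-sensing prolyl hydroxylase, also fell in BMDM and rose in MEF, with a difference of -5.39 ± 0.70 (adjusted p = 0.00307). Ctps, which makes CTP for nucleic acid synthesis, fell in BMDM from 9.92 to 5.65 and had 11.29 and 12.34 in MEF (difference -5.08 ± 0.98, adjusted p = 0.015). Lhfpl2 had a log2 difference from 0 h of -3.23 at 3 h in BMDM and 1.01 in MEF.

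Proliferation genes were lower in macrophages at 8 h. Of 11 tested cell cycle genes, 0, 2 and 10 were at least 2-fold lower in BMDM at 1, 3 and 8 h and 0, 0 and 1 in MEF, and none was higher at any time. The median at 8 h was -1.91 in BMDM and -0.33 in MEF. By the test over both genotypes at 8 h, 10 fell in BMDM and none in MEF, and 1 passed the test of the difference. Without the 2 p50KO arrays nearest to a later time, 11 fell in BMDM and 6 in MEF, and 10 fell by more in BMDM. Over all genes the difference was called for 11.1% with these arrays and 31% without them. Among the largest falls were Anln and Cdca2, which act in cell division. Anln had log2 signals of 11.05 at 0 h and 6.40 at 8 h in BMDM and 10.74 and 9.74 in MEF. Its difference was -3.87 ± 1.27 (SE, adjusted p = 0.08, and 4.47e-05 without the 2 p50KO arrays). Cdca2 fell in BMDM by 4.73, with a difference of -3.83 ± 0.78 (adjusted p = 0.0184). St6gal1, a sialyltransferase, went from 10.08 at 0 h to below detection at 8 h in BMDM and from 8.56 to 6.38 in MEF. Mcm6, a replication helicase subunit, went from 10.77 to 9.73 in BMDM and from 9.22 to 9.37 in MEF, with a difference of -1.35 ± 0.25 (adjusted p = 0.0132).

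Other genes were lower in fibroblasts. Fbxw5, a substrate receptor of a ubiquitin ligase, had log2 signals of 8.70 at 0 h and 5.84 and 6.10 at 3 and 8 h in MEF, and was below detection at 1 h. In BMDM it had 10.42, 10.06, 10.02 and 10.29. Fbxw5 fell in MEF over both genotypes, by 3.15 at 8 h (adjusted p = 0.000228), yet against the IFNb-series 0 h array its WT value was 0.60 at 3 h and 0.86 at 8 h. Gucy1a1, a subunit of the nitric oxide receptor, went from 8.54 to below detection in MEF and from 5.61 to 5.98 in BMDM (difference at 8 h 4.29 ± 0.29, SE, adjusted p = 0.000121). Against the IFNb-series array its MEF value was 0.15 at 3 h and -0.68 at 8 h. Lrrn3 had 8.54, 8.45, 6.98 and 5.88 in MEF and was on no BMDM array (difference 3.17 ± 0.26, adjusted p = 0.000456). Id1, an inhibitor of differentiation factors, had a log2 difference from 0 h of -3.01 at 1 h in BMDM and of -2.23 at 3 h in MEF. Dusp6, an ERK phosphatase, fell in BMDM and had 0.81 in MEF at 8 h (difference -2.77 ± 0.44, adjusted p = 0.00787).

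The p50KO arrays also gave a second look at single WT inductions. Of the genes induced in WT MEF, 87.9% at 1 h, 86.7% at 3 h and 80.6% at 8 h were induced on the p50KO MEF arrays of the same label. In BMDM the share was 71.9% at 8 h, and 68.9% and 74.9% at 1 and 3 h, where the p50KO arrays were those nearest to a later time.

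Many classical LPS targets had no probe shared by both platforms, and 44 members of the lists could be joined by gene symbol only, so that each cell type was read with its own probe. Each induction therefore describes its own probe within its own cell type, and how far the probes differ in sensitivity was not tested. Ccr7, Dhx58, Fcer1a, H2-D1, Rtp4, S100a9, Ticam2 and Tnip2 were on no WT MEF array, and Col1a1, Lum and Pdgfrb on no WT BMDM array. The counts and inductions that follow are set side by side without a ranking of the cell types. Of these 44 genes, 18, 31 and 33 were induced in BMDM at 1, 3 and 8 h and 9, 23 and 25 in MEF, with 9, 22 and 23 induced in both. The examples that follow were chosen after their values were seen. Tnf, the prototype inflammatory cytokine, was induced by 6.33, 6.15 and 5.35 in BMDM and by at least 4.37, 5.02 and 5.62 in MEF. Il1b, interleukin 1 beta, was induced by at least 5.49, 7.05 and 7.16 in BMDM and by at least 2.34, 4.52 and 7.48 in MEF. Both cytokines were thus already induced at 1 h in fibroblasts. Cxcl1, a neutrophil attractant, was induced by at least 8.84, 7.86 and 5.29 in BMDM, a declining course, and by 4.91, 6.79 and 6.61 in MEF, where it did not decline to the same extent. Cxcl10, of the interferon type, was induced by at least 8.35, 9.97 and 9.72 in BMDM and in MEF from 3 h, by at least 5.84 and 6.06. Icam1, an adhesion receptor for leukocytes, reached 4.71 and 4.96 at 3 h. Myd88 was induced by 1.88 and 1.95 at 8 h, and Irak2, its downstream kinase, by 3.12 in BMDM and 0.26 in MEF.

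Promoter sequences from RefSeq (assembly GRCm38.p6), 250 bases before to 50 after each start, were searched on both strands for 3 motifs. These were GGGA, any 2 bases and TTCC for NF-kB, GAAA, any 2 bases and GAAA for the interferon-stimulated response element (ISRE), and TGANTCA for AP-1. Matches of a motif were allowed to overlap each other and those of another motif. Of the 262 genes induced in both cell types, 209 had a promoter, and 17.7% of these held the ISRE letters. This share was 4.08% among the 5342 tested genes with a promoter and 3.99% among all 27025 promoters. It was 6.3% for genes induced in BMDM and less than 1.5-fold higher in MEF at every time, and 7.06% for the reverse set. AP-1 letters were in 13.9% of the promoters of the shared set, against 6.93% of the tested genes, and NF-kB letters in 2.87% against 1.63%. A match is a description of these letters and no evidence of binding.

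The windows below show such matches in capitals, each with 25 bases on either side where the promoter allows, on the strand of the gene and 5′ to 3′. They belong to genes whose time courses are given above, and are shown to place the motif letters beside those values. Only genes with a match are shown. Among 92 named genes with a promoter, 5 held the NF-kB letters, 12 the ISRE letters and 12 the AP-1 letters. Tnfaip3 and Nfkbie held no NF-kB letters, and Oasl1, Irf7 and Ifi47 held no ISRE letters. The NF-kB letters of Ifnb1 lie at chr4:88522876-88522935 on the minus strand and those of Il6 at chr5:30013045-30013104 on the plus strand.
Ifnb1: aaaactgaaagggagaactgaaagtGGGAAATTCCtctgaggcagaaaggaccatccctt
Il6: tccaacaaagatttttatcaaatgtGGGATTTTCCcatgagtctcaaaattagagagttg

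Isg15 holds 3 overlapping ISRE matches and Ifit3 holds 2, of which 1 each is shown. The ISRE letters of 4 interferon-responsive genes induced in both cell types are shown next, in either orientation. They lie at chr19:34583382-34583441 for Ifit3, chr3:142496744-142496803 for Gbp5 and chr11:58199497-58199555 for Igtp, all on the plus strand, and at chr4:156200856-156200915 on the minus strand for Isg15.
Ifit3: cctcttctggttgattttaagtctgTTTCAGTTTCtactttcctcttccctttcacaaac
Gbp5: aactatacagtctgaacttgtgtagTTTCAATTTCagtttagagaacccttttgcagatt
Igtp: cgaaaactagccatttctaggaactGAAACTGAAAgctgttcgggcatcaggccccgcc
Isg15: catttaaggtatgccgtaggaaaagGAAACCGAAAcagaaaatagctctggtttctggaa

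The AP-1 letters of the 2 secreted metalloproteinase genes lie on the plus strand, at chr9:7272454-7272510 for Mmp13, which was induced in both cell types, and at chr9:7445751-7445807 for Mmp3, which was on no BMDM array. The matches begin at -35 and -46 from the start, in promoters of genes that differed in the macrophages.
Mmp13: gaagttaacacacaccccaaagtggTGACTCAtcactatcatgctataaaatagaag
Mmp3: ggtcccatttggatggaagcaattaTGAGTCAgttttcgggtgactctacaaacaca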

How the data were processed

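Illumina MouseRef-8 bead arrays were used for all 33 samples, in version 2 for BMDM and version 1.1 for MEF, per the labels. Probe intensity values deposited by the authors without normalization were taken as the starting point, with the detection p-value deposited beside each intensity. BeadStudio, with no version given, was the authors' software, per the submitters' processing notes. A second deposited table of intensity values normalized by the authors, with the method not given in the sources used here, served as an alternative. Depth is not defined for arrays, and 1 array per condition limits the precision.

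Each file was background corrected with limma's nec (normexp, negative controls inferred from the detection p-values, offset 16). The 16075 probes common to the BMDM (25697 probes) and MEF (24613 probes) files were joined by probe ID, quantile normalized over all 33 arrays together and put on log2. Gene symbols were those of the platform annotation, brought up to date with a GRCm38.p6 gene table: 15235 joined probes had 1 symbol, 840 none, and 29 of 14676 probes annotated on both versions differed. A gene entered the tests if a probe was detected (p under 0.01) on 2 or more of the 8 arrays, and its brightest probe stood for it. All p-values are from two-sided limma fits (eBayes), with Benjamini-Hochberg adjustment over the 6546 genes, called under 0.05, and errors are standard errors. In the fit over 16 arrays of both genotypes, genotype was a term within each cell type and time was nested in cell type. Both fits took the log2 signals as they were, without the detection limit in the place of signals below it. The computations ran in R 4.3.3 (limma 3.58.1) and Python 3.11.15 (figures in matplotlib 3.10.9), and the fits were tested on simulated data.

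The members, gene lists, motifs and tests were chosen with earlier results of these data known. Named genes were, at each time, the 5 genes induced in both with the largest smaller-of-both induction, the 5 with the largest gap in each direction among induced genes, and the 3 largest falls per cell type. To these came the 4 most induced members of each list and any member of the first 4 lists. The genes called by the fit on WT arrays alone, the marker genes and the genes joined by symbol were chosen after their values were seen where they fall outside this rule. Alternatives covered normalization, background, filters, probe choice, baseline array, fold threshold and arrays left out.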

Additional observations from a re-analysis of the deposited data

Results flagged for a closer look

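The items here had a response to LPS whose difference between macrophages and fibroblasts passed the limma test over both genotypes (Benjamini-Hochberg adjusted p under 0.05). They number 9 genes at 1 h, 112 at 3 h and 728 at 8 h. Without the 2 p50KO macrophage arrays that lay nearest to a later WT time, the numbers were 30, 343 and 2028.

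Among the genes with the largest gaps between the WT inductions, the response was higher in BMDM for Mmp14 (7.32 on the log2 scale at 8 h), Cdc42ep2 (6.92 at 3 h), Edn1 (5.64 at 8 h), Slfn1 (5.07 at 8 h), Mmp13 (4.51 at 1 h), Socs3 (3.99 at 8 h) and Hbegf (1.40 at 8 h). Mmp14 lay near the shared highest signal of 15.22 in MEF already at 0 h, and the part of this in its difference was not tested. Hbegf, a growth factor gene, was named for its MEF induction of 1.23 at 1 h. Its difference at 8 h came with an MEF signal that had gone below detection.

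The response was lower in BMDM at 8 h for Angptl4 (-6.08), Ccl2 (-5.93), Trim47 (-5.69), Egln3 (-5.39), Cxcl5 (-5.09), Ctps (-5.08), Mmp3 (-4.49), Ccl3 (-4.13) and Ccl4 (-3.42). Of these, Ccl2, Ccl3 and Ccl4 had unstimulated log2 signals of 11.88 to 13.27 in BMDM, where all arrays shared a highest signal of 15.22, and the part of this in the difference was not tested.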

How the results depend on the processing

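Over 90 named genes, 340 inductions were recomputed in 4396 comparisons, of which 3979 moved by less than the spread of unstimulated arrays, 406 moved further and 11 changed sign. All 11 came from the fibroblast baseline. Against the mean of both unstimulated arrays Ccl8 at 3 h was -0.06. Against the IFNb-series array alone, Ccl2 at 1 h was -0.33, Ccl8 at 3 h -1.27, Cdca7 0.38 at 3 h and 0.44 at 8 h, Dusp1 -0.33 at 1 h and -0.14 at 8 h, Fbxw5 0.60 and 0.86 at 3 and 8 h, Gucy1a1 0.15 at 3 h and Mmp13 -1 at 3 h. Of 309 recomputed counts, 245 stayed within 1.5 times. With the mean baseline the genes past 2-fold in MEF numbered 245 at 1 h and 528 at 3 h, against 37 and 330. With the other baseline alone they numbered 630 and 1203 in BMDM at 1 and 3 h, 917, 1091 and 1156 in MEF at 1, 3 and 8 h, and 99 and 303 in both at 1 and 3 h. At 1 h the order of the cell types in these totals of higher and lower genes thus turned with the other baseline alone, to more genes in MEF. With the mean baseline the totals were nearly even (245 in MEF and 243 in BMDM). Of these, 144 genes were higher in BMDM and 115 in MEF. A 1.5-fold threshold by construction gave more, 469, 1668 and 2726 in BMDM, 101, 852 and 1399 in MEF and 52, 462 and 703 in both. A 3-fold threshold gave 93, 345 and 760, then 19, 156 and 270, and 16, 89 and 159. The 12 genes called in WT BMDM over all times became 25 with 75th percentile scaling, 31 with detection on 2 arrays of each cell type, 7 with the mean of probes, 5 with the join by symbol, and 0 without a filter or without the time term. With both unstimulated arrays the calls were 178 in BMDM, 48 in MEF and 4 for the difference. Without the 1 h arrays they were 231 in BMDM and 76 in MEF, and without the 3 h or the 8 h arrays 0 in BMDM. Over both genotypes, the authors' values called 3 differences at 1 h. Detection on 2 arrays of each cell type, which leaves fewer genes, called 203 in MEF and 37 differences at 3 h, and 622 and 343 at 8 h. The join by symbol, with more genes, called 1116 differences at 8 h. Without the p50KO 1 h arrays there were 38 calls in BMDM, 6 in MEF and 0 differences at 1 h, where 139 had an unadjusted p under 0.05, and 188 differences at 3 h. Leaving out arrays in 3 further ways was chosen after seeing the data. Without the p50KO BMDM 1 h array, 70 genes were called in BMDM at 1 h and 324 differences at 3 h. Without the CpG-series p50KO BMDM 0 h array, BMDM calls were 46, 104 and 1100, and differences 36 at 3 h and 163 at 8 h. Without the p50KO BMDM arrays labelled 1 and 3 h, calls were 27, 820 and 1756 in MEF, 1142 in BMDM at 3 h, and 30, 343 and 2028 for the difference. Where no reason is given, the cause was not tested. The fit over both genotypes and the other baselines were not run for the normalization over the 8 arrays alone, which holds none of those arrays. No paired analysis was possible because the conditions have 1 array each and carry no replicate numbers. The detection limit of the WT MEF arrays bounds many fibroblast inductions from below.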
